A study of Mus musculus with 4 samples.

Results

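The 9 genes described here encode transcription factors and cofactors of the layers of the urothelium: Pparg, Gata3, Klf5, Klf4, Tfap2a, Tfap2c, Bnc1, Sox15 and Vgll1. They were chosen by name, with earlier results of these data known. Every array probe that carries one of these names was taken, which gave 12 probes. Of the 9 genes, 8 passed the filter on dim probes and were tested among 18161 genes, and Bnc1 did not pass. The RNA came from E18.5 ureters of mouse embryos on the NMRI background. The ΔNp63-cKO embryos (cKO below) were Pax2-cre/+; Trp63(dN-flox/dN-flox), so that both alleles of the ΔN form of Trp63, the p63 gene, were floxed and Cre was driven by Pax2-cre. The control embryos were Trp63(dN-flox/?), with at least 1 floxed allele and no cre listed. Each of the 4 arrays of 2 colours held 1 cKO RNA and 1 control RNA of the same sex, with 3 female pairs and 1 male pair (array 2), and the cKO was in the red channel on arrays 1 and 3 and in the green channel on arrays 2 and 4. Pax2-cre acts in cells of the nephric duct lineage, from which the ureteric epithelium arises, while the RNA came from the whole dissected ureter.

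The urothelium is a layered epithelium with basal cells on the basement membrane, intermediate cells above them and superficial cells that carry the uroplakin plaques facing the urine. p63 in its ΔN form is the defining transcription factor of basal cells in many layered epithelia. Pparg, a nuclear receptor, Gata3, a zinc finger factor, and Klf5, a Krüppel-like factor, are known for their roles in urothelial differentiation. Klf4 is a Krüppel-like factor of epithelial barrier formation, Tfap2a and Tfap2c are AP-2 factors of skin and other surface epithelia, and Bnc1 is a zinc finger protein of basal keratinocytes. Sox15 is a SOX factor, and Vgll1 is a vestigial-like cofactor that binds TEAD factors.

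The deposited files hold a probe of 60 bases for each measurement, with positions in mm9, and exons and untranslated regions are not given there. Of the 12 probe sequences, 5 are shown, because they carry the largest fall, the second Tfap2a transcript, the rise of Vgll1 and the probe whose position spans a gap. The Sox15 probe lies at chr11:69469212-69469271 on the plus strand. A Tfap2a probe named for the transcript NM_001301674 lies at chr13:40829040-40829099 on the minus strand, upstream of the brighter Tfap2a probe at chr13:40811044-40811103. A pair of Vgll1 probes lie at chrX:54355156-54355215 and chrX:54359167-54359226 on the plus strand. The Klf5 probe is placed at chr14:99702656-99712388 on the plus strand, an interval of 9733 bases for 60 bases of probe.
Sox15 probe: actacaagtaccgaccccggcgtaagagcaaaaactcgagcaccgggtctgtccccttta
Tfap2a probe of NM_001301674: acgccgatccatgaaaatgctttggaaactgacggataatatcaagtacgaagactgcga
Vgll1 second probe: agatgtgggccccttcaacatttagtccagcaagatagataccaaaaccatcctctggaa
Vgll1 brightest probe: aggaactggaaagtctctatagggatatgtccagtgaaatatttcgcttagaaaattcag
Klf5 probe: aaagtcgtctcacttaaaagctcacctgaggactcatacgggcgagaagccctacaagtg

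The arrays had median spot signals of 460.3 to 598.4 units in the cKO channels and 477.1 to 607.3 units in the control channels, with 72.4% to 82.6% and 72.6% to 90.0% of spots well above background, and array 1 had the highest share in both genotypes. Over all probes, which are not independent replicates, Pearson's r of the log2 ratios was 0.47 to 0.67 for pairs of arrays. Of the marker lists, 12 of 12 basal, 12 of 12 superficial and 8 of 8 smooth muscle genes passed the filter. So did 8 of 8 hepatocyte and 9 of 9 endothelium genes, and 18161 of 24357 genes of any kind. Passing the filter therefore does not single out the labelled tissue. Trp63, the targeted gene, averaged -2.18 ± 0.50 as log2 of cKO over control (SD, n = 4; adjusted p = 0.00207 by limma). Whether an RNA stands for 1 embryo or for several is not in the labels, and the p-values therefore cover the spread over these 4 arrays, which may be technical.

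Of the 8 tested factors, 3 fell in the cKO ureters, Sox15 4.71-fold, Tfap2c 2.71-fold and Tfap2a 2.29-fold, and 1 rose, Vgll1, 1.87-fold. Pparg, Gata3 and Klf5 had mean ratios between -0.45 and -0.42 and Klf4 one of 0.35, and none of these 4 was called. Same-sign ratios on all 4 arrays were found in 7 of the 8, against 30.6% of all tested genes. A gene was called at a limma adjusted p under 0.05, and 8.55% of all tested genes were called, 5.63% lower and 2.92% higher in the cKO. Among the 8 members 3 were lower and 1 was higher. The members were chosen with earlier results of these data known, so their shares cannot be read as an excess over the background. The median log2 ratio of all tested genes was 0.002.

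**Figure D1:**
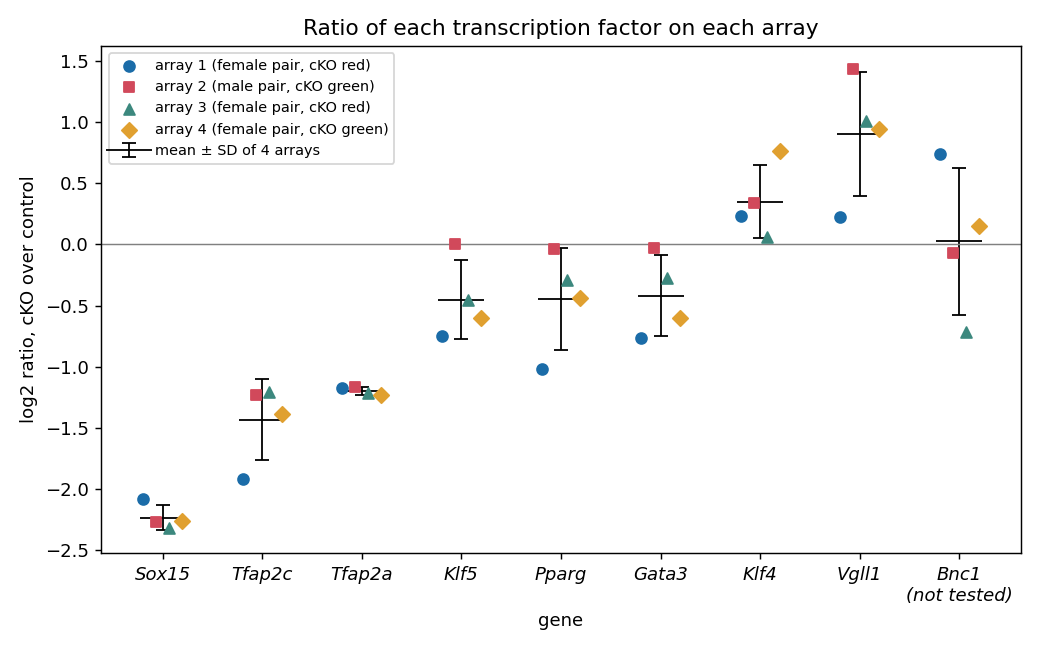
Log2 ratio of cKO over control (y axis) for each of the 9 genes (x axis), with 1 marker for each of the 4 arrays and a bar for the mean with its SD. Sox15, Tfap2c and Tfap2a lie below -1 on each array, Vgll1 lies above 0 on each array, and Bnc1, which was not tested, scatters from -0.72 to 0.74.

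Among the 8 tested members Sox15 had the largest change. Its level, as log2 intensity after normalization, was 7.12, 7.52, 7.40 and 7.44 in the cKO RNAs of arrays 1 to 4, against 9.21, 9.79, 9.72 and 9.70 in the control RNAs. The cKO RNAs were all low and the control RNAs all high, with no overlap, and both genotypes were well above background on each array. The log2 ratios were -2.09, -2.27, -2.32 and -2.27, with a mean of -2.24 ± 0.10 (SD, n = 4; limma adjusted p = 0.000233). Sox15 had the 18th lowest ratio of all tested genes. With Agilent's processed signals centred on the median, in place of normexp and loess, its ratio was -2.84, and with median centring alone in place of loess it was -2.25.

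Tfap2c, an AP-2 factor of early ectoderm and trophoblast, had levels of 9.14, 9.76, 9.88 and 9.65 in the cKO RNAs, against 11.06, 10.99, 11.09 and 11.04 in the control RNAs. The control RNAs lay close together (SD 0.04), the cKO RNAs were spread more widely (SD 0.33), and the groups did not overlap. The ratios were -1.92, -1.23, -1.20 and -1.39, with a mean of -1.44 ± 0.33 (SD, n = 4; limma adjusted p = 0.00349). The lowest value came from array 1, and without that array the fitted ratio, adjusted for dye, was -1.26 (adjusted p = 0.00454).

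Tfap2a, an AP-2 factor of neural crest and skin, was the steadiest member across arrays. By its brightest probe its levels were 9.02, 9.10, 9.32 and 9.26 in the cKO RNAs, against 10.20, 10.27, 10.53 and 10.49 in the control RNAs. Each pair was separated by nearly the same amount, and the groups did not overlap. The ratios were -1.17, -1.17, -1.22 and -1.24, with a mean of -1.20 ± 0.03 (SD, n = 4; limma adjusted p = 0.00057).

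The second Tfap2a probe, printed above, belongs to another RefSeq transcript and gave a smaller ratio. Its levels were 6.31, 6.76, 6.86 and 6.80 in the cKO RNAs, against 6.68, 7.06, 7.13 and 7.05 in the control RNAs, and 3 of the 4 cKO RNAs were well above background. The groups overlapped, while each pair had the lower value in its cKO RNA. The ratios were -0.37, -0.30, -0.27 and -0.24, with a mean of -0.30 ± 0.05 (limma adjusted p over probes 0.0328). These levels lay near the lowest signal called well above background, which was 6.32 to 6.67 in the cKO channels. With the mean of both probes the Tfap2a ratio was -0.75 (adjusted p = 0.00155). Of the other AP-2 genes, Tfap2d and Tfap2e were not tested, and Tfap2b, named here after its value was seen, had a ratio of 0.34 ± 0.33 (adjusted p = 0.0578).

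Vgll1 was the member that rose. By its brightest probe its levels were 7.53, 9.14, 8.68 and 8.47 in the cKO RNAs, against 7.30, 7.71, 7.67 and 7.52 in the control RNAs. The cKO RNA of array 1 lay within the range of the control RNAs and the other 3 above it, so the groups overlapped. The ratios were 0.22, 1.44, 1.01 and 0.95, with a mean of 0.90 ± 0.50 (SD, n = 4; limma adjusted p = 0.0268). On the arrays with the cKO in red the mean was 0.62, and on those with the cKO in green it was 1.19. The adjusted p was 0.0806 without array 2 and 0.0502 without array 3, which ended the call, and 0.0909 with the authors' deposited log2 ratios, where the ratio was 1.19.

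The other Vgll1 probes were dimmer. The probe at chrX:54342483-54342542 had ratios of 0.12, 0.69, 0.68 and 0.37 (mean 0.47 ± 0.27, limma adjusted p over probes 0.0731), and the second printed probe had ratios of 0.02, 0.86, 0.76 and 0.58 (mean 0.55 ± 0.38, adjusted p 0.0734). All 3 probes were higher in the cKO RNA on each of 4 arrays, and in each the smallest ratio was that of array 1. Averaged over the probes the ratio was 0.64 (adjusted p = 0.0455). Vgll1 lies on the X chromosome, and both RNAs of an array had the same labelled sex.

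**Figure D2:**
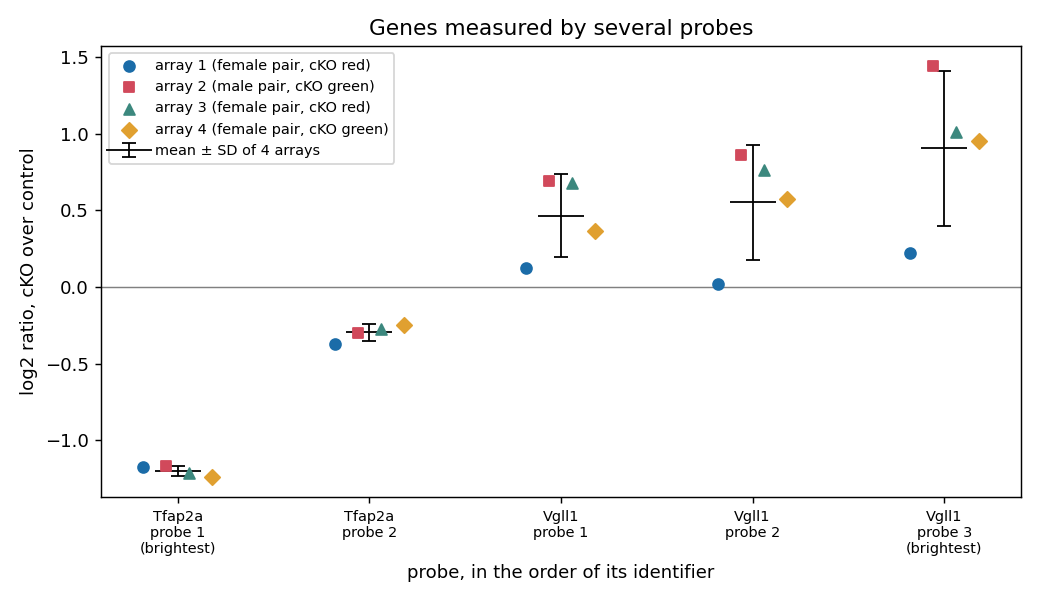
Log2 ratio of cKO over control (y axis) of the 2 Tfap2a and 3 Vgll1 probes (x axis), with 1 marker per array and the mean with its SD. The brightest Tfap2a probe lies near -1.20 and the other near -0.30 on each array, while the 3 Vgll1 probes all have their lowest marker on array 1.

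Pparg, Gata3 and Klf5 had high levels and small negative mean ratios that differed between arrays. The Pparg levels were 14.34, 15.12, 14.85 and 14.85 in the cKO RNAs, against 15.36, 15.16, 15.14 and 15.29 in the control RNAs. Every cKO RNA lay below every control RNA, although the gap on array 2 was small. Groups without overlap occurred in 9.84% of all tested genes and in 4 of the 8 members, namely Sox15, Tfap2a, Tfap2c and Pparg. The Pparg ratios were -1.02, -0.04, -0.29 and -0.44, with a mean of -0.45 ± 0.42 (SD, n = 4; limma adjusted p = 0.129, unadjusted 95% interval -0.79 to -0.10).

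The Gata3 levels were 13.80, 14.59, 14.39 and 14.16 in the cKO RNAs, against 14.57, 14.62, 14.66 and 14.76 in the control RNAs. The cKO RNA of array 2 lay within the control range, and the other 3 lay below it. The ratios were -0.77, -0.03, -0.27 and -0.60, with a mean of -0.42 ± 0.33 (adjusted p = 0.125, unadjusted 95% interval -0.74 to -0.10).

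The Klf5 levels were 14.10, 14.69, 14.43 and 14.14 in the cKO RNAs, against 14.85, 14.69, 14.88 and 14.74 in the control RNAs. Again the cKO RNA of array 2 lay beside the control RNAs and the other 3 lay below. The ratios were -0.75, 0.00, -0.46 and -0.60, with a mean of -0.45 ± 0.33 (adjusted p = 0.0829, unadjusted 95% interval -0.74 to -0.16). In a fit of the separate channels with the array as a random replicate block, Klf5 and Pparg passed (adjusted p = 0.0245 and 0.0468) and Gata3 did not (adjusted p = 0.056).

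**Figure D3:**
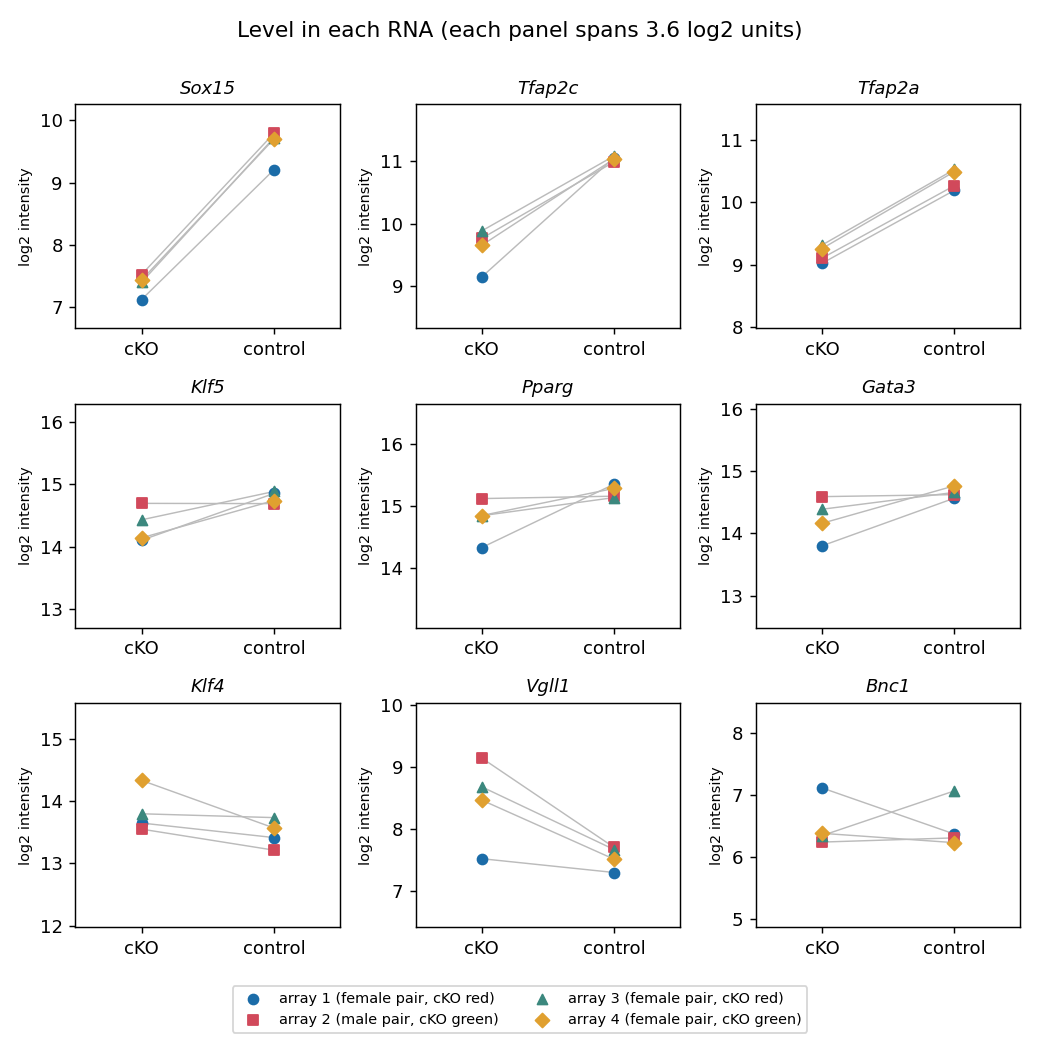
Log2 intensity (y axis, 3.6 log2 units in each panel) of each of the 9 genes in the 4 cKO RNAs (left) and the 4 control RNAs (right), with a grey line joining the RNAs of an array. Sox15, Tfap2c and Tfap2a have all cKO RNAs well below the controls, and the cKO RNAs of Pparg, Gata3 and Klf5 spread more widely than their controls, with the cKO RNA of array 2 close to its control in each.

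The ratios of Pparg, Gata3 and Klf5 lay in a similar order over the arrays, lowest on array 1 and highest on array 2. The median of 12 superficial urothelium genes was -0.99, -0.13, -0.25 and -0.60 on arrays 1 to 4, and the median of 12 basal urothelium genes was -1.36, -1.51, -1.52 and -1.39. Between the lowest and the highest array the ratio of Pparg differed by 0.98, that of Klf5 by 0.75, that of Gata3 by 0.73 and that of Tfap2c, also lowest on array 1, by 0.71, against 0.24 for Sox15 and 0.07 for Tfap2a. Single superficial genes differed by 0.58 to 1.36 (median 0.92), and 12 of 12 were lowest on array 1. Single basal genes differed by 0.15 to 1.18 (median 0.43), and 2 of 12 were lowest on array 1, Shh and Trp63, of which Trp63 had the widest range of the list. The Trp63 ratios were -2.86, -1.68, -2.03 and -2.13 on arrays 1 to 4. They were thus lowest on array 1 and highest on array 2, like those of Pparg, Gata3 and Klf5. With 4 arrays no correlation was computed. Whether the share of superficial cells or the fall of Trp63 moved with the ratios of Pparg, Gata3 and Klf5 was not tested. In RNA of a whole ureter, fewer cells of a type and less RNA per cell cannot be told apart. Over all 4 arrays 3 of the 12 superficial genes fell and 0 rose, with a median of -0.46, and 8 of the 12 basal genes fell and 0 rose, with a median of -1.39. The basal falls include that of Trp63, the targeted gene. The count of superficial genes that fell was 1 without array 1 or array 4, and 7 in the fit with a replicate block.

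**Figure D4:**
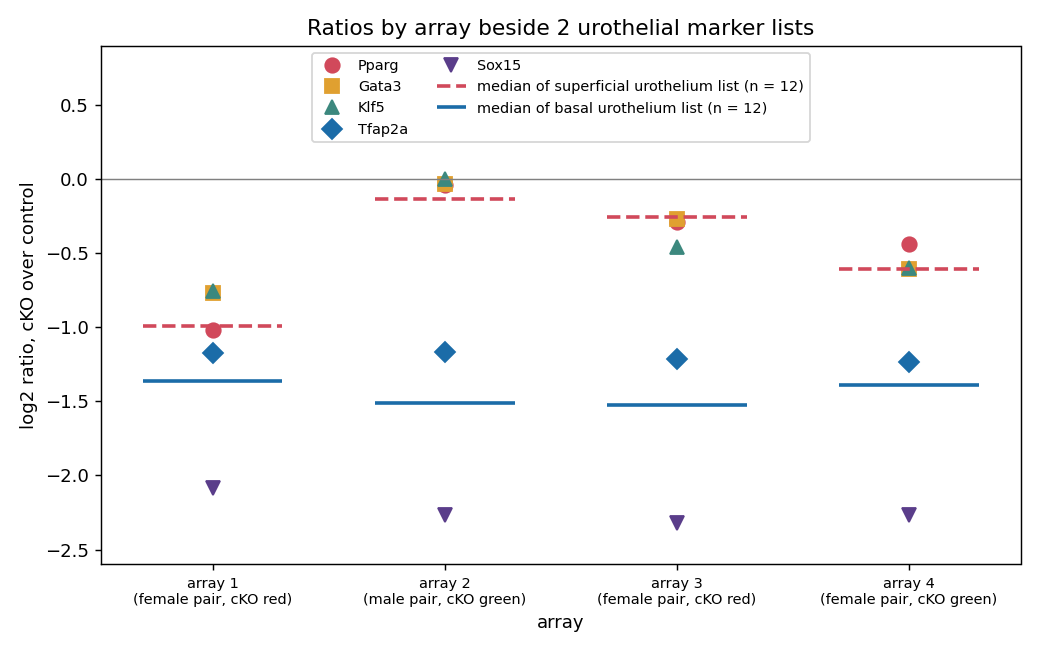
Log2 ratio of cKO over control (y axis) on each array (x axis) for 5 of the factors (markers) and for the medians of the superficial (dashed) and basal (solid) urothelium lists, 12 genes each. Pparg, Gata3 and Klf5 lie near the superficial median on each array, from -1.02 to 0.00, and Tfap2a and Sox15 lie below -1 on every array. Tfap2c, Klf4 and Vgll1 are not drawn. Tfap2c was also below -1 on every array, but it was lowest on array 1, like Pparg, Gata3 and Klf5.

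Klf4 was on the other side of 0. Its levels were 13.65, 13.55, 13.80 and 14.33 in the cKO RNAs, against 13.42, 13.21, 13.74 and 13.57 in the control RNAs. The cKO RNA was the higher in each pair, but the groups overlapped. The ratios were 0.23, 0.34, 0.06 and 0.77, with a mean of 0.35 ± 0.30 (SD, n = 4; limma adjusted p = 0.0774, unadjusted 95% interval 0.13 to 0.57). The mean was 0.15 on the arrays with the cKO in red and 0.55 on those with the cKO in green, and without array 2 the adjusted p was 0.0449 with a ratio of 0.46.

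Bnc1 was near background. Its probe at chr7:89111978-89112037 was well above background in cKO RNA on 1 array and in control RNA on 2 arrays. The levels were 7.11, 6.24, 6.34 and 6.38 in the cKO RNAs, against 6.37, 6.31, 7.06 and 6.23 in the control RNAs. The higher values were those of 1 RNA of each genotype, and the ratios of 0.74, -0.07, -0.72 and 0.15 went both ways. No fold change or test is given for it.

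The families of these factors were described from lists chosen by name, with earlier results of these data known. Genes were tested singly, and no list was tested as a whole. Of 16 tested Krüppel-like genes, 2 rose, 1 fell and 13 did not pass, with a median of 0.13. Klf15 had a ratio of 0.55 ± 0.18, Klf12 of 0.47 ± 0.21 and Klf10, a TGF-beta-induced factor, of -0.57 ± 0.17 (limma adjusted p = 0.0187, 0.0426 and 0.014). None of these 3 calls held with every array left out in turn. Klf15 had an adjusted p of 0.0835 when array 1 was left out and 0.0584 for array 4, Klf10 0.0677 for array 1 and 0.0527 for array 3, and Klf12 0.0913 to 0.127 for arrays 2, 3 and 4. Of 6 GATA genes 1 rose, Gata6 at 0.42 ± 0.15 (adjusted p = 0.0305), a call that ended without array 1, 2 or 4 (0.117, 0.0552 and 0.123), and the median of the family was 0.04. Of 6 tested basonuclin and SOX genes of the B and G groups, Sox15 fell and the other 5 did not pass, with a median of 0.02.

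Pparg acts as a heterodimer with RXR receptors and turns on genes of lipid use. Of 6 PPAR and RXR genes, 1 fell, Rxra at -0.34 ± 0.07 (limma adjusted p = 0.0226), and its adjusted p was 0.0538 to 0.105 when any array was left out. Of 9 coregulators 1 fell, Ppargc1a at -0.30 ± 0.11 (adjusted p = 0.0488, and 0.0799 to 0.193 with an array left out). Of 20 PPAR target genes 5 fell, 2 rose and 13 did not pass, with a median of -0.03. Pdk4, a kinase that holds back pyruvate oxidation, fell 1.92-fold (-0.94 ± 0.08, adjusted p = 0.00123), with ratios of -1.02, -0.96, -0.95 and -0.84. Cpt1a, an enzyme of fatty acid oxidation, had a ratio of -0.43 ± 0.11, and Fabp3, a fatty acid-binding protein, had one of 0.55 ± 0.14 (adjusted p = 0.0104 and 0.0132). Both calls ended when single arrays were left out, with adjusted p up to 0.058 and 0.0588, and the falls and rises in the list numbered 1 and 0 without array 1, 4 and 1 without array 2, 2 and 0 when array 3 was left out, and 1 and 1 for array 4.

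Vgll1 binds TEAD factors, which YAP and TAZ also use. Of 9 tested genes of this group 2 rose, Vgll1 and Tead4, and 7 did not pass, with a median of 0.05. Tead4 had a ratio of 0.43 ± 0.21 (limma adjusted p = 0.0387), a call that ended without array 1, 2 or 3 (0.121, 0.0792 and 0.133). Of 13 YAP and TEAD target genes 2 fell, 1 rose and 10 did not pass, with a median of -0.03. Crim1, a membrane-bound regulator of BMP signals, fell, with a ratio of -0.84 ± 0.27 (adjusted p = 0.0102). Ptpn14, a phosphatase that binds YAP, had a ratio of -0.43 ± 0.06 (adjusted p = 0.0113, and 0.0545 and 0.0572 without array 3 or 4), and Tgfb2, a TGF-beta ligand, one of 0.35 ± 0.14 (adjusted p = 0.0314, and 0.065 to 0.136 with an array left out).

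Of 21 tested genes for other epithelial transcription factors of the urothelium, 9 fell, 0 rose and 12 did not pass, with a median of -0.47. Trp63, the targeted gene and also in the basal list, is among the 9. Beside Trp63, Zfp750, a zinc finger factor of epidermal differentiation, fell 2.79-fold (-1.48 ± 0.53, limma adjusted p = 0.00527), and the grainyhead-like factor Grhl2 fell 2.34-fold (-1.23 ± 0.38, adjusted p = 0.00791). Zfp750 had ratios of -2.24, -1.01, -1.41 and -1.26 and Grhl2 of -1.61, -0.74, -1.15 and -1.42 on arrays 1 to 4, again lowest on array 1 and highest on array 2. The count of falls was 4 without array 1 and 5 without array 4.

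The genes whose 4 ratios were nearest to those of a member were sought for the 3 members with a mean ratio of at least 1 in size, by Euclidean distance over the 4 arrays among 15791 named genes. Nearest to Sox15 were Shh, the secreted signal of the ureteric epithelium, at a distance of 0.29 and Wnt10a, a Wnt ligand, at 0.32. Nearest to Tfap2a were Prrg4, a transmembrane protein, at 0.09 and Aldh1a1, a retinaldehyde dehydrogenase, at 0.12. Nearest to Tfap2c were S100a14, a calcium-binding protein, at 0.19 and Me1, malic enzyme, at 0.26. S100a14 had ratios of -1.94, -1.17, -1.05 and -1.48. Its low value on array 1, like that of Tfap2c, follows from the choice by distance and is no separate result.

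Markers of other cells that can express these factors moved in part. Pparg is a factor of fat cells, and of 8 adipocyte genes Adipoq, Plin1, Cfd, Retn, Cidec and Lep did not pass the filter on dim probes. Of the 2 tested adipocyte genes, Cidea had a ratio of 0.44 ± 0.19 (limma adjusted p = 0.0278, and 0.0732 to 0.109 without array 2, 3 or 4). Ucp1 had one of -0.34 ± 0.20 (limma adjusted p = 0.0804). It was well above background in cKO RNA on 1 array and in control RNA on 4, so its fold cannot be interpreted. Together Cidea and Ucp1 had a summed intensity of 788 to 1203 units in the cKO RNAs, against 635 to 795 units in the control RNAs. This sum is mostly Cidea, with mean log2 levels of 9.72 in cKO and 9.28 in control RNAs, against 6.46 and 6.80 for Ucp1. It is therefore no measure of fat cells as a whole. Gata3 is also expressed in sympathetic neurons, whose list had 2 of 8 genes higher, 0 lower and a median of 0.27, with summed intensities of 12443 to 14128 in the cKO RNAs and 9072 to 17034 in the control RNAs. Its medians on arrays 1 to 4 were 0.76, 0.40, 0.14 and -0.32, and the count of higher genes was 0 without array 1 and 1 without array 2 or 3. Klf4 is also expressed in endothelium, where 0 of 9 genes passed, with a median of 0.22 and summed intensities of 87371 to 110704 in the cKO RNAs and 82251 to 92478 in the control RNAs.

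The smooth muscle and mesenchyme lists had 0 of 8 and 0 of 9 genes past the threshold, with medians of 0.15 and 0.15. Of 7 tested leukocyte genes 1 fell, with a median of -0.06. The hepatocyte list had 4 of 8 genes higher and medians of 2.38, 2.55, 1.31 and 0.47 on arrays 1 to 4, with summed intensities of 28869 to 225864 in the cKO RNAs and 12179 to 43326 in the control RNAs. Its count was 1 without array 1, 0 without array 3 and 6 without array 4. Of 6 tested collecting duct and kidney tubule genes 3 were higher and 1 lower, of 7 tested intestinal-type genes 3 were higher and 1 lower, and of 5 tested mesothelium genes 1 was higher. With an array left out, the kidney list had 1 higher gene (array 2 or 4) and 0 lower genes (array 1 or 3), and the intestinal list had 1 higher gene (array 3) and 0 lower genes whichever array was left out. The part of these cells in the results for the 9 factors was not tested.

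RefSeq promoter windows (GRCm38.p6, 250 bases before to 50 after a start site) were at hand for 7 of the 9 genes, 10 windows in all. They were searched on both strands for short motifs of the factor families, and matches of different motifs may overlap. The AP-2 motif was spelled GCCNNNGGC. The motif of the GATA factors was AGATAA. That of the Krüppel-like factors was CCACCC. For TEAD factors it was GGAATG. Nuclear receptors were given AGGTCA. The spaced core motif of the p53 family was searched as well. The background was 32841 windows of the same length over all genes, with those of the members among them. The AP-2 motif was in 4 of 10 member windows and in 16.6% of the background, and the Krüppel-like motif in 4 of 10 and in 31.5%. The GATA motif was in 0 of 10 and in 11.2%, and the TEAD motif in 1 of 10 and in 14.7%. The nuclear receptor motif was in 2 of 10 and in 16.3%, and the loose p53 family motif in 9 of 10 and in 70.2%. The AP-2 motif was in 1 window each of Pparg, Gata3, Klf4 and Bnc1, and the TEAD motif was in the Vgll1 window. The windows with an AP-2 motif held 67.3% to 83.3% G and C, and the other member windows 40.3% to 62.7%. The fixed letters of the AP-2 motif are all G or C, and the background was not matched for base content. The shares therefore cannot be read as an excess of the motif. The windows of Sox15, the member that fell most, and of Vgll1, the member that rose, are shown with their motifs for AP-2, GATA, Krüppel-like and TEAD factors in capitals, which are a Krüppel-like motif in Sox15 and a TEAD motif in Vgll1, both on the opposite strand. The Sox15 window is chr11:69654787-69655086 on the plus strand, and the Vgll1 window is chrX:57087856-57088155 on the plus strand. A match is a run of letters, and binding was not measured.
Sox15 promoter: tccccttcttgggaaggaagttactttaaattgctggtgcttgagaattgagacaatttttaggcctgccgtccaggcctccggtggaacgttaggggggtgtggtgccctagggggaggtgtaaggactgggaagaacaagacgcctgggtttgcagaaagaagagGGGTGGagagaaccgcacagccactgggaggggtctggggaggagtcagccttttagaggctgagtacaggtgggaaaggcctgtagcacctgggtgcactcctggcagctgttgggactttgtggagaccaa
Vgll1 promoter: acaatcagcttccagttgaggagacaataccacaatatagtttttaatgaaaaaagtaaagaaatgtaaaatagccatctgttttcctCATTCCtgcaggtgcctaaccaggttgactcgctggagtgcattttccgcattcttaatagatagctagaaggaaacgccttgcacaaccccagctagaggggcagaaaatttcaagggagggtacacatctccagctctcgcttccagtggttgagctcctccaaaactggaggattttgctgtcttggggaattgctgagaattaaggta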

How the data were processed

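Total RNA (200 ng) was amplified in 1 round and coupled to AlexaFluor555 or AlexaFluor647, per the labels' protocols. The authors read the spot intensity values (mean signal, median local background and processed signal, all linear) with Feature Extraction (Agilent, version 10.7.3.1), as stated per the file headers. The deposited scanner files also give a log10 ratio of red over green, not used in the tests. A table of log2 ratios (cKO over control) was also deposited, with a median of 0 in every column; its slope against ratios of the processed signals was 1.00, and 7718 to 12487 probes per array are exactly 0, for a reason the sources used here do not give. The authors' deposited flags (other values, 0 or 1) mark outlier, saturated and above-background spots.

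Mean signals were corrected with normexp (offset 50), normalized by loess within arrays and given the direction cKO over control, as log2; levels per RNA were also quantile-normalized on the mean intensity. Outlier spots (3.04% to 3.58%) were left out, no spot was saturated, and 4 spots per probe were averaged. A probe passed if most of its spots were well above background on all 4 arrays in at least 1 genotype, and the brightest passing probe stood for a gene. Of 39429 probes, 28328 took their gene from an accession, 3400 from a current symbol and 243 from an old one; the file's name stayed on 1777, and 5681 had no gene. The test was that of limma (version 3.58.1, R 4.3.3) with lmFit and eBayes, a dye term and 2 residual degrees of freedom, adjusted by Benjamini-Hochberg over all genes. The fit was tested on simulated data with independent noise, which cannot check for effects shared by many genes of an array. A male minus female coefficient was added for a check. Each ratio is already a pair, since both RNAs were hybridized to the same spots; in a fit of the separate channels the 2 RNAs of an array correlated at 0.633. All arrays carry 1 scan time. The number of arrays limits the precision, and signal below the background limit has no interpretable fold. Alternatives changed the background correction, normalization, filter, probe choice, dye term, pairing and arrays.

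The members, the gene lists and the rule for named genes (from each list up to 4 called genes with the lowest p, or the 2 brightest where none was called) were chosen with earlier results of these data known. Some of the genes this rule selects are not reported here.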

Additional observations from a re-analysis of the deposited data

Results flagged for a closer look

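The control level of Sox15 on array 1, at 9.21, stood apart from the other 3 control RNAs, with a gap to the nearest that was 0.846 of the range. The cKO level on that array was also the lowest of the 4, and the ratio there was -2.09. With groups of 4, about 1 in 20 is expected to stand out in this way.

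Klf5 had a ratio of 0.00 (0.0037) in the male pair, against negative ratios in the 3 female pairs, so that the difference in sign rests on a value next to 0. Gata3 and Pparg had ratios of -0.03 and -0.04 in the male pair, against means of -0.55 and -0.58 in the female pairs. The female pairs differed among themselves, from -0.77 to -0.27 for Gata3 and from -1.02 to -0.29 for Pparg. Of the 12 superficial urothelium genes, 10 were also highest on array 2, the male pair, so sex and array cannot be told apart. For Klf5 the coefficient of the male pair minus the female pairs was 0.604, with a limma adjusted p of 0.968. No tested gene passed for this coefficient, which rests on 1 residual degree of freedom and on 1 male pair.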

How the results depend on the processing

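Over 15 alternatives, the 8 tested members kept the direction of their ratios, and Sox15, Tfap2a and Tfap2c also kept their calls in each of them. Their ratios ranged from -2.85 to -2.18, from -1.30 to -0.75 and from -1.61 to -1.26. Gata3 passed in none of them (-0.56 to -0.28). With an array left out, the Klf4 ratio was 0.24 to 0.46 (past the threshold without array 2), the Klf5 ratio -0.60 to -0.30 (past it without array 2), the Pparg ratio -0.63 to -0.26 (past it without array 3) and the Vgll1 ratio 0.71 to 1.10 (not past it without array 2 or 3). Klf5 also passed with median centring in place of loess (-0.46, adjusted p = 0.0449, limma) and, like Pparg, with the array as a replicate block (-0.45 for both). The block changed the call of no other member. Vgll1 did not pass with the deposited log2 ratios (1.19) or in separate channels with no replicate block (0.90, adjusted p = 0.246). The counts over all genes, 530 higher and 1023 lower, were 277 to 359 and 554 to 768 with an array left out, 259 and 596 with the deposited ratios, 120 and 438 with no replicate block, and 901 higher with the replicate block (1430 lower). No alternative moved the median of all genes by more than 0.016. The causes of these changes were not tested, and the fits that leave an array out also rest on fewer arrays. Dim signal limits Bnc1, the second Tfap2a probe, the Vgll1 probes and the size of the Sox15 fall, whose cKO levels were low and whose ratio was -2.56 with a normexp offset of 10.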
